A study of Danio rerio with 10 samples.

Results

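Anti-Müllerian hormone (amh), gonadal soma derived factor (gsdf), the inhibin alpha subunit (inha), the inhibin and activin beta subunits inhbaa and inhbb, and the type I receptor gene bmpr1bb were followed in zebrafish testes. These 6 genes, of 19260 measured, were the ones whose symbol the platform annotation matched exactly, and where a gene had several probes the brightest on average over the 10 arrays was read. The 10 Affymetrix whole-transcript arrays held testis RNA of wildtype males of the AB strain at an age of 1 year, and the labels call the arrays of a group biological replicates without saying whether testes were pooled. In the treated group of 5 arrays, fish had been held in water with TCDD, a chlorinated dioxin that activates the aryl hydrocarbon receptor, at 50 pg/ml for 1 h at 3 weeks after fertilization and again at 7 weeks, when the gonad differentiates and matures. The fish of the other 5 arrays had received the solvent DMSO alone on the same schedule. The comparison asks whether the transcripts of these 6 genes differ in the adult testis long after that exposure.

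Amh and Gsdf are secreted proteins of the TGF-beta superfamily made by Sertoli cells, the somatic cells that nurse the germ line, and in the ovary by granulosa cells. Zebrafish without amh accumulate early germ cells in overgrown gonads, and zebrafish without bmpr1bb develop germ cell tumours of the testis. The inhibin alpha subunit joins a beta subunit to form inhibin, while paired beta subunits form activin, so that the same beta chains serve ligands of opposite action on pituitary follicle-stimulating hormone in mammals. Superfamily ligands bind pairs of type I and type II receptors, which activate Smad proteins in the responding cell.

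All 10 Sertoli markers (such as sox9a and gata4), all 6 measured Leydig markers and all 12 measured germ cell markers lay above the median probe, as did 4 of 9 ovary markers. So did 8 of 9 intestine and pancreas markers, 7 of 7 liver markers and 3 of 8 muscle markers. Lying above the median probe therefore does not tell testis from other tissue. The DMSO 1 array stood apart, at 109.3 on the first principal component (56.0% of variance) against -33.6 to 47.5 in the other arrays. Its germ cell marker mean was 8.55 against 10.6 to 11.4 elsewhere. The mean of 9 intestine and pancreas markers peaked in DMSO 1 at 11.7, followed by TCDD 2 at 10.9, TCDD 3 at 10.0 and TCDD 4 at 8.83, and it was 7.36 to 7.99 in the remaining arrays. The mean of 7 liver markers was 11.04 in TCDD 5, and its range was 7.52 to 11.04 over TCDD and 6.96 to 8.04 over DMSO, with 7 of 7 markers above 0 and 4 of them at an unadjusted p under 0.05, against 0.800% of all genes higher at that level. The mean of 8 muscle markers had a range of 6.35 to 6.70 over TCDD and 6.58 to 7.63 over DMSO, with 8 of 8 markers below 0 and 5 of them at an unadjusted p under 0.05, against 1.68% of all genes lower at that level. The mean of 9 ovary markers was 6.94 in TCDD 3 and 7.10 in TCDD 4 and 6.21 to 6.54 elsewhere. These samples are bulk tissue, in which fewer cells of a type and less RNA per cell cannot be told apart. The differences of amh, gsdf and inha are therefore also given without DMSO 1 and TCDD 2, and without TCDD 3 and TCDD 4. They are further given with the intestine and liver means as covariates, while the part of the muscle signal was not tested.

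The ligand genes amh and gsdf and the inhibin alpha gene lay higher on average in TCDD testes, by 1.75-, 1.41- and 1.94-fold, while inhbb lay at 0.955-fold. None of these differences, nor those of inhbaa and bmpr1bb, passed limma's test after Benjamini-Hochberg adjustment over all genes (adjusted p = 1.00 for each of the 6), where 0% of all genes were called and the smallest adjusted p was 0.996. At an unadjusted p under 0.05 the count was 0 of 6, against 2.48% of all genes. The groups separated without overlap in 0 of the 6, against 0.493% of all genes. Averages lay above 0 for 5 of the 6, as they did for 54.6% of all genes, and the median of the 6 differences was 0.41 on the log2 scale against 0.02 over all genes.

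**Figure D1:**
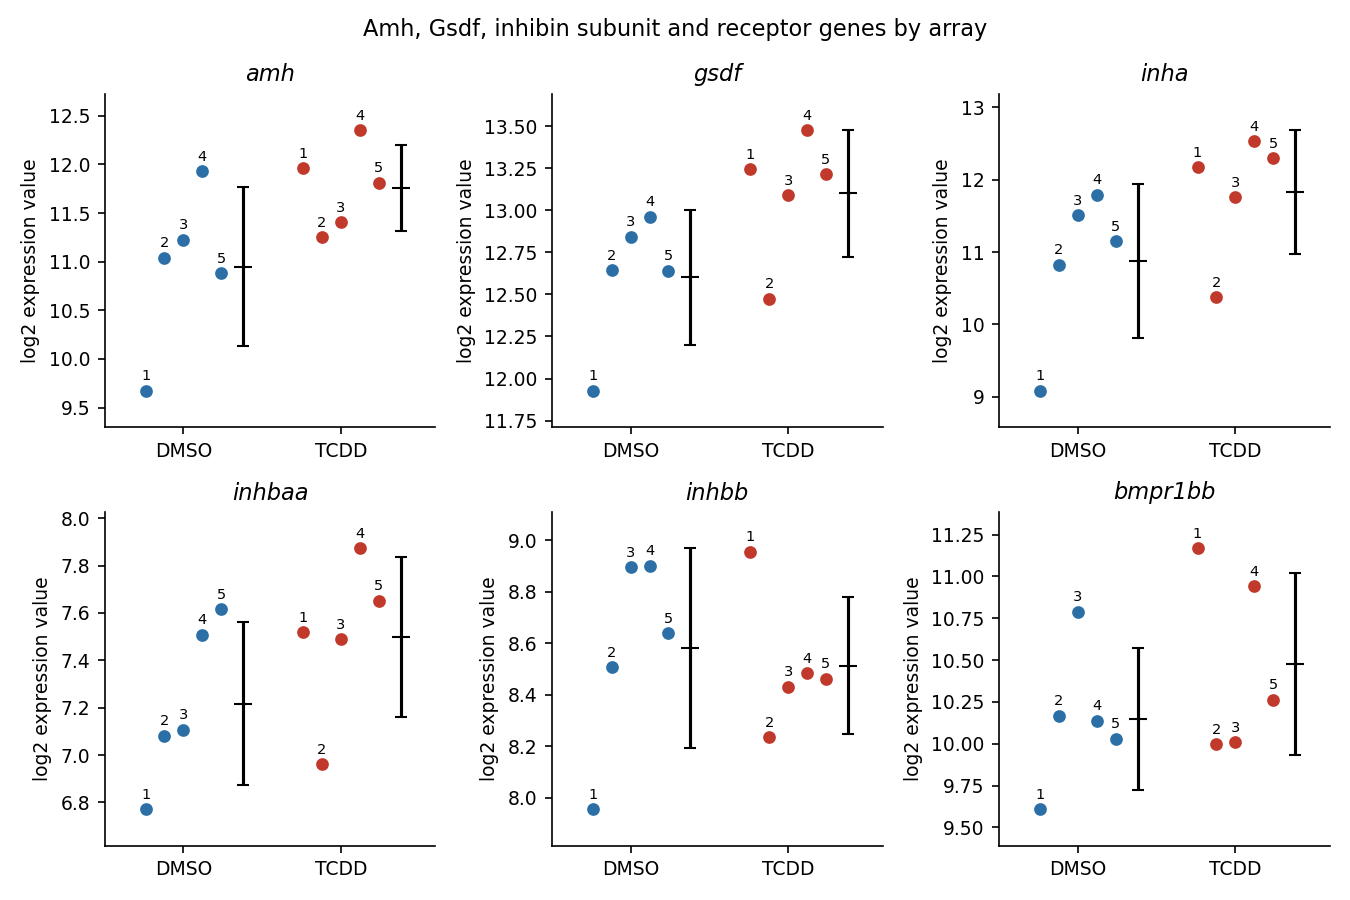
Deposited log2 expression values of the 6 genes (y axis) in the 5 DMSO and 5 TCDD testes, with each point numbered by its array and the bar giving the mean ± SD of the group. For every gene DMSO 1 is the lowest of all 10 points, and TCDD 2 is the lowest of the TCDD points.

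amh (probe 13128263, Entrez gene 493624) was among the brightest probes, at the 98.6 percentile of all probes. On the log2 scale it read 9.67, 11.04, 11.22, 11.93 and 10.88 in DMSO arrays 1 to 5. In TCDD arrays 1 to 5 it read 11.96, 11.25, 11.41, 12.35 and 11.81. All 5 TCDD values lay above the DMSO mean and above every DMSO value but that of DMSO 4. DMSO 4 exceeded every TCDD value except those of TCDD 1 and TCDD 4. The group means were 11.76 ± 0.44 and 10.95 ± 0.82 (SD, n = 5 each), a difference of 0.81 with a 95% confidence interval of -0.00457 to 1.62. Of all genes, 2.60% had a smaller p. DMSO 1 was the lowest array by a wide margin.

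Without DMSO 1 the amh difference was 0.49 (95% CI -0.088 to 1.07), and without DMSO 4 it was 1.05 (95% CI 0.30 to 1.81, limma adjusted p = 1.00). The intestine marker mean was highest in DMSO 1, where amh was lowest. When DMSO 1 and TCDD 2 were both left out, the difference was 0.61 (95% CI 0.049 to 1.18, limma adjusted p = 0.796).

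gsdf (probe 13112808, Entrez gene 571289), a fish-specific Sertoli cell factor, was still brighter, at the 99.7 percentile of probes. Its log2 values were 11.93, 12.64, 12.84, 12.96 and 12.64 in DMSO arrays 1 to 5. They were 13.25, 12.47, 13.09, 13.48 and 13.22 in TCDD arrays 1 to 5. With the exception of TCDD 2, each TCDD array exceeded all DMSO arrays, so the overlap came from 1 array. TCDD averaged 13.10 ± 0.38 against 12.60 ± 0.40 in DMSO (SD, n = 5 each), which makes a difference of 0.50 (95% CI -0.00697 to 1.00). Without DMSO 1 the difference was 0.33 (95% CI -0.087 to 0.74), and without TCDD 2 it was 0.65 (95% CI 0.20 to 1.11, limma adjusted p = 1.00). Without both arrays it was 0.49 (95% CI 0.19 to 0.78, limma adjusted p = 0.727), close to its value over all arrays and with a narrower interval.

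inha (probe 13220300, Entrez gene 570520) encodes the subunit that makes a dimer an inhibin and not an activin. It read 9.08, 10.83, 11.51, 11.79 and 11.15 in DMSO arrays 1 to 5 on the log2 scale, and 12.18, 10.38, 11.76, 12.54 and 12.29 in TCDD arrays 1 to 5. TCDD 1, 4 and 5 exceeded every DMSO array, TCDD 3 lay just under DMSO 4, and TCDD 2 lay below all DMSO arrays but DMSO 1. Its spread was the widest of the 6 genes, with an SD over the 10 arrays of 1.04, larger than that of 97.4% of all genes. The means were 11.83 ± 0.86 and 10.87 ± 1.06 (SD, n = 5 each), and they differed by 0.96 (95% CI -0.22 to 2.13), which as a fold runs from 0.857 to 4.39.

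Leaving out single arrays moved the inha difference between 0.51 (95% CI -0.36 to 1.38, without DMSO 1) and 1.32 (95% CI 0.24 to 2.40, without TCDD 2, limma adjusted p = 1.00). Without TCDD 2 amh, gsdf and inha each had an unadjusted p under 0.05, 3 of 6 members against 3.10% of all genes, while after adjustment 0 members and 0.00519% of all genes passed. Without both arrays the inha difference was 0.87 (95% CI 0.36 to 1.38, limma adjusted p = 0.727), and the p of inha, like that of gsdf and amh, was then under 0.05 before adjustment. There the 3 of 6 members stand against 6.18% of all genes at that level in either direction and 3.77% higher in TCDD. These 3 genes varied together over the arrays, so they are not 3 separate observations. The 2 arrays were chosen for their intestine transcripts with earlier results of these data known. They were also the lowest of their groups for each of the 6 genes, so leaving both out trims the spread of the members.

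**Figure D2:**
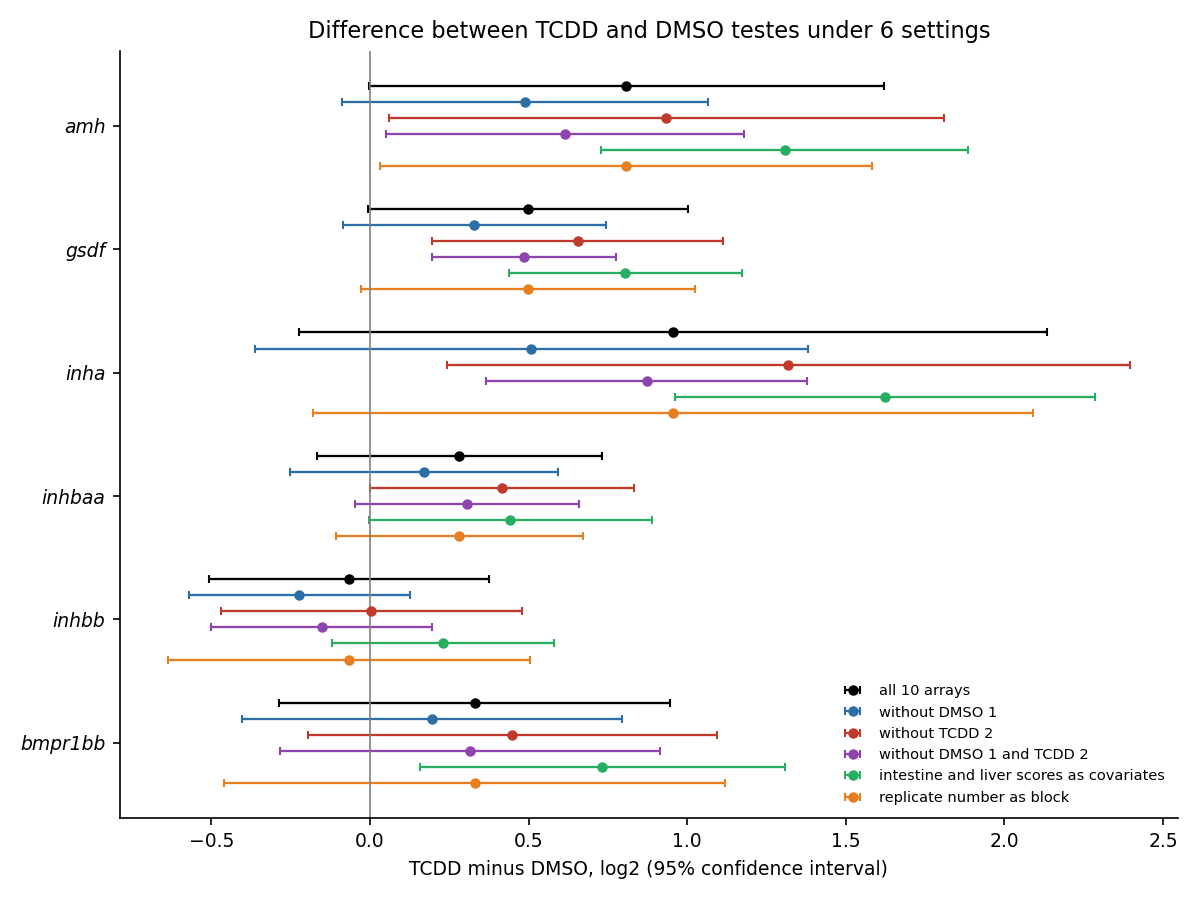
Difference between TCDD and DMSO (x axis, log2) for each gene, with its 95% confidence interval from limma, over all 10 arrays and under 5 other settings. Over all arrays the intervals of all 6 genes include 0, and those of amh, gsdf, inha and bmpr1bb exclude 0 once the intestine and liver marker means enter the model.

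When the mean levels of the intestine and liver markers in each array entered the model as covariates, the differences were larger. amh then differed by 1.31 (95% CI 0.73 to 1.89), gsdf by 0.80 (95% CI 0.44 to 1.17), inha by 1.62 (95% CI 0.96 to 2.29) and bmpr1bb by 0.73 (95% CI 0.16 to 1.31), each with a limma adjusted p of 0.375. Before adjustment 4 of the 6 genes had a p under 0.05, against 12.6% of all genes in the same model, and 0 genes passed after adjustment. The liver mean itself differed between the groups, at 8.64 in TCDD and 7.42 in DMSO, with 11.04 in TCDD 5. With 2 covariates on 10 arrays, this model cannot cleanly separate the group from the liver mean. Without TCDD 3 and TCDD 4, which had the highest ovary marker means, the differences were smaller than over all arrays. amh then differed by 0.73 (95% CI -0.28 to 1.73), gsdf by 0.38 (95% CI -0.25 to 1.00) and inha by 0.74 (95% CI -0.76 to 2.24).

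Among the beta subunits, inhbaa (probe 13148591, Entrez gene 30072) was the dimmest of the 6, at the 61.7 percentile of probes. Its values were 6.77, 7.08, 7.11, 7.51 and 7.61 in DMSO arrays 1 to 5 and 7.52, 6.96, 7.49, 7.87 and 7.65 in TCDD arrays 1 to 5. The groups overlapped broadly, with TCDD 4 and TCDD 5 above and DMSO 1 below all values of the other group. The means were 7.50 ± 0.34 and 7.22 ± 0.34 (SD, n = 5 each), and they differed by 0.28 (95% CI -0.17 to 0.73). It was 0.17 without DMSO 1, and 0.16 without TCDD 3 and TCDD 4, the arrays with the highest ovary marker means.

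inhbb (probe 13261656, Entrez gene 30275), at the 80.7 percentile, read 7.96, 8.51, 8.90, 8.90 and 8.64 in DMSO arrays 1 to 5. In TCDD arrays 1 to 5 it read 8.95, 8.23, 8.43, 8.48 and 8.46. TCDD 1 was the highest array of all, and the other TCDD arrays lay below DMSO 2 to 5. TCDD averaged 8.51 ± 0.27 and DMSO 8.58 ± 0.39 (SD, n = 5 each), and the difference was -0.066 (95% CI -0.51 to 0.38). The sign was not stable. The difference was -0.22 without DMSO 1 and -0.18 without TCDD 1, and it was 0.0031, 0.013 and 0.014 without TCDD 2, DMSO 3 or DMSO 4.

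The 2 forms of the beta A gene in zebrafish are inhbaa and inhbab, of which the latter was singled out after its values were seen. inhbab differed by 0.21 (95% CI -0.26 to 0.68), or by 0.079 without DMSO 1, and its group means were 7.64 ± 0.38 for TCDD and 7.43 ± 0.34 for DMSO (SD over 5 arrays each). Its highest value, 8.16, was in TCDD 4, and its lowest, 6.91, in DMSO 1, the same arrays that were highest and lowest for inhbaa.

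Because inhibin and activin share their beta chains, the log2 difference between the alpha and a beta gene was taken within each array. Only its difference between groups is read here, since levels of different probes cannot be set against each other. inha minus inhbb was 1.13, 2.32, 2.61, 2.89 and 2.51 in DMSO arrays 1 to 5 and 3.22, 2.14, 3.33, 4.05 and 3.83 in TCDD arrays 1 to 5. All TCDD arrays but TCDD 2 exceeded all DMSO arrays. The group difference was 1.02 (exact two-sided permutation p = 0.0635, adjusted over the 2 ratios 0.127), where the smallest p that 5 against 5 arrays allow is 0.00794. inha itself differed by 0.96 and inhbb by -0.066, so most of the 1.02 was the inha difference already given. For inha minus inhbaa the group difference was 0.67 (exact permutation p = 0.167, adjusted 0.167), with 4 of 5 TCDD arrays above the DMSO mean.

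The size of both differences, and whether they passed the threshold, depended on single arrays. Without TCDD 2 the group differences were 1.32 (exact permutation p = 0.0159, adjusted 0.0317) for inha minus inhbb and 0.90 (exact permutation p = 0.0476, adjusted 0.0476) for inha minus inhbaa. TCDD 2 was the lowest TCDD array for inha, and without it inha alone differed by 1.32 and inhbb by 0.0031. Without DMSO 1 inha minus inhbaa differed by 0.34 (exact permutation p = 0.302, adjusted 0.302) and inha minus inhbb by 0.73 (exact permutation p = 0.119, adjusted 0.238). Over the 14 alternatives the adjusted p ranged from 0.0317 to 0.393 for inha minus inhbb and from 0.0476 to 0.393 for inha minus inhbaa. Among these alternatives, the replicate block was tested by flipping signs of same-numbered pairs. With so few pairs it cannot give a p under 0.05, so its failure to pass says nothing on stability.

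**Figure D3:**
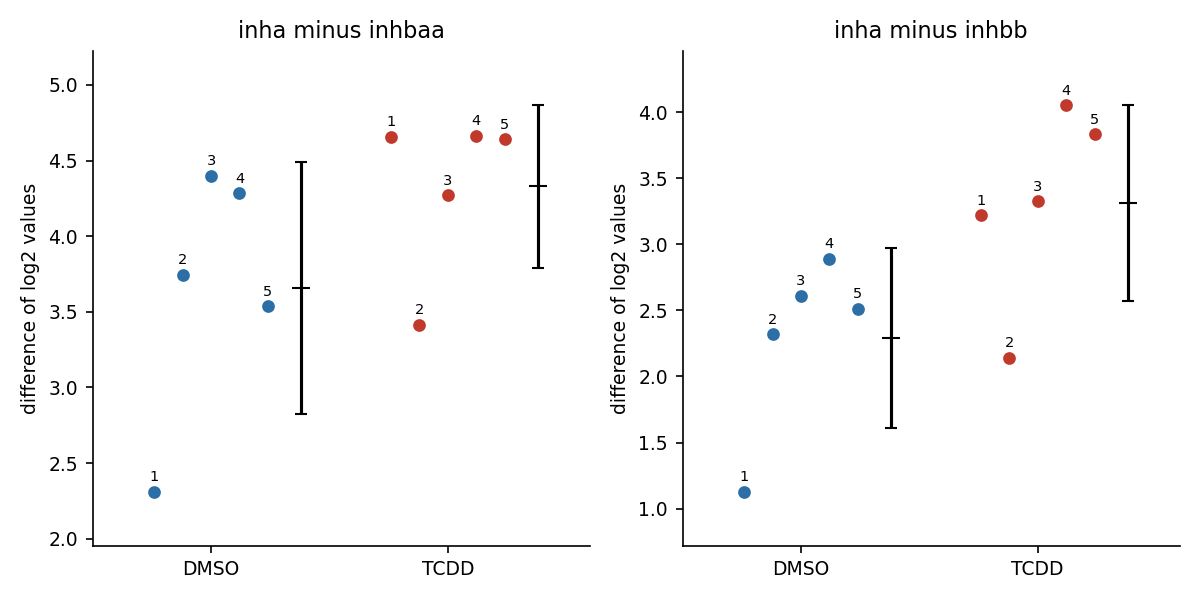
Within-array difference of log2 values between the inhibin alpha gene and each beta subunit gene (y axis), by group, with arrays numbered and bars showing the mean ± SD. For inha minus inhbb the TCDD arrays other than TCDD 2 lie between 3.22 and 4.05, above the highest DMSO array at 2.89.

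The receptor gene bmpr1bb encodes a type I receptor of the BMP class, which has been proposed to carry Amh signals in zebrafish. Probe 12966033 (Entrez gene 100149664), at the 96.2 percentile, read 9.61, 10.17, 10.79, 10.14 and 10.03 in DMSO arrays 1 to 5 and 11.17, 9.997, 10.01, 10.94 and 10.26 in TCDD arrays 1 to 5. TCDD 1 and TCDD 4 exceeded all DMSO arrays, while TCDD 2 and TCDD 3 lay below 4 of the 5. The means were 10.48 ± 0.54 and 10.15 ± 0.42 (SD, n = 5 each), and they differed by 0.33 (95% CI -0.29 to 0.95). It was 0.16 without TCDD 1, 0.20 without DMSO 1 and 0.21 without TCDD 4. A second bmpr1bb probe, 12966040, differed in the same direction by 0.23 (95% CI -0.54 to 1.00), and the other 5 genes had 1 probe each. The paralogue bmpr1ba, singled out after its values were seen, differed by 0.18 (95% CI -0.34 to 0.69), or by 0.012 without DMSO 2 and 0.35 without DMSO 3.

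Across the 10 arrays amh, gsdf and inha varied together. The closest pair was gsdf and inha, with Pearson's r of 0.985 (permutation p = 1e-05, the smallest that 100000 resamples can give, adjusted over 15 pairs 0.00015) and Spearman's rho of 0.964 (permutation p = 5e-05, adjusted 0.00075). Leaving out DMSO 1 and TCDD 4, the arrays farthest from the gsdf median, r was 0.970. For amh and gsdf r was 0.938 (permutation p = 0.00022, adjusted 0.00165) and rho 0.891 (permutation p = 0.0012, adjusted 0.00574), with r of 0.793 without the same arrays. For amh and inha r was 0.928 (permutation p = 0.00036, adjusted 0.0018) and rho 0.879 (permutation p = 0.00153, adjusted 0.00574), with r of 0.755 without them. inhbaa varied with them too. Its r was 0.879 with inha, 0.862 with gsdf and 0.779 with amh (permutation p of 0.00052, 0.00121 and 0.00557, adjusted 0.00195, 0.00363 and 0.0139). For bmpr1bb r was 0.719, 0.739 and 0.704 in the same order (permutation p of 0.019, 0.0144 and 0.0206, adjusted 0.0343, 0.0309 and 0.0343). By rho, the adjusted permutation p with amh was 0.0743 for both. Without the 2 farthest arrays r was 0.731, 0.681 and 0.454 for inhbaa and 0.541, 0.499 and 0.421 for bmpr1bb. inhbb varied less with amh, gsdf and inha. Its r was 0.605 with amh (permutation p = 0.0644, adjusted 0.0805) and rho 0.370 (permutation p = 0.296, adjusted 0.296). That r was 0.399 without DMSO 1 and TCDD 4, the arrays farthest from the amh median, and 0.19 without DMSO 1 alone. With inha r was 0.674 (permutation p = 0.0318, adjusted 0.0434) and rho 0.430 (permutation p = 0.218, adjusted 0.266), and without DMSO 1 and TCDD 2, the arrays farthest from the inha median, r was -0.018. That relation rests on those arrays. In all these correlations both groups were pooled, so shared group differences and array-wide differences enter r and its p.

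The members were set beside the mean of the 10 Sertoli markers, none of which is a member. TCDD arrays averaged 9.24 ± 0.45 for it, with a range of 8.57 to 9.78, and DMSO arrays 8.83 ± 0.27, with a range of 8.51 to 9.23 (SD over 5 arrays each). Of the markers 10 of 10 lay above 0 with a median of 0.39, and 0 passed limma's adjusted threshold. Other lists lay on the same side, with 6 of 6 Leydig markers above 0 (median 0.70) and 12 of 12 germ cell markers (median 0.28). So did 9 of 9 intestine and pancreas markers (median 0.57) and 7 of 7 liver markers (median 1.39). Muscle markers lay on the other side, with 8 of 8 below 0 (median -0.48). The germ cell mean was 8.55 in DMSO 1 and 10.9 to 11.4 in the other DMSO arrays, against 10.6 to 11.3 in TCDD arrays. Its higher TCDD average thus rests on DMSO 1. The Sertoli markers with a p under 0.05 before adjustment were sox9a at 0.85, gata4 at 0.59 and dhh at 0.61, against 0.800% of all genes. inhbaa followed the marker mean with r of 0.923 (permutation p = 0.00016, adjusted over 18 relations 0.00096), gsdf with 0.899 (permutation p = 0.00047, adjusted 0.00169), inha with 0.872 (permutation p = 0.00069, adjusted 0.00207) and amh with 0.833 (permutation p = 0.00233, adjusted 0.00524). Spearman's rho was 0.915, 0.927, 0.964 and 0.842 in the same order (permutation p of 0.00051, 0.00032, 4e-05 and 0.00391, adjusted 0.0023, 0.00192, 0.00072 and 0.0088). Without DMSO 1 and TCDD 4, the farthest arrays, the 4 values of r were 0.872, 0.888, 0.907 and 0.776. The permutations pooled both groups, so group differences and array-wide differences such as that of DMSO 1 enter each r and p. How many of all genes reach such r with the marker mean was not counted. These r therefore do not show a relation particular to Sertoli genes.

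For bmpr1bb r with the Sertoli marker mean was 0.570 (permutation p = 0.088, adjusted 0.099) and rho 0.685 (permutation p = 0.0351, adjusted 0.0632), and r was 0.21 without the farthest arrays. For inhbb r was 0.363 (permutation p = 0.302, adjusted 0.302) and rho 0.394 (permutation p = 0.265, adjusted 0.367), and r was 0.31 without them. inhbb lay closer to the mean of the 12 germ cell markers, with r of 0.816 (permutation p = 0.00013, adjusted 0.00096) and rho of 0.842 (permutation p = 0.00375, adjusted 0.0088), and r was 0.706 without DMSO 1 and TCDD 2. Whether its 2 correlations differ was not tested. The Leydig marker mean, 9.30 to 9.98 in TCDD and 7.81 to 9.75 in DMSO, also followed amh with r of 0.915 (permutation p = 0.00093, adjusted 0.00239), gsdf with 0.925 (permutation p = 0.0001, adjusted 0.00096) and inha with 0.933 (permutation p = 0.00027, adjusted 0.00121), with rho of 0.891, 0.939 and 0.867 (permutation p of 0.00121, 0.00027 and 0.00213, adjusted 0.00436, 0.00192 and 0.00639). Without DMSO 1 and DMSO 5 these r were 0.690, 0.921 and 0.911. With the Leydig mean inhbaa, inhbb and bmpr1bb had r of 0.714, 0.673 and 0.698 (permutation p of 0.00907, 0.0282 and 0.0153, adjusted 0.0181, 0.0363 and 0.025). Their rho was 0.624, 0.285 and 0.709 (adjusted permutation p of 0.0967, 0.453 and 0.0538). Without DMSO 1 and DMSO 5 their r were 0.807, 0.314 and 0.612. With the germ cell mean amh had r of 0.762 (permutation p = 0.0431, adjusted 0.0517) and rho of 0.236 (permutation p = 0.514, adjusted 0.514), and r was -0.11 without DMSO 1 and TCDD 2. The r of gsdf, inha and inhbaa with it, at 0.750, 0.823 and 0.636 (permutation p of 0.0211, 0.0102 and 0.0259, adjusted 0.0317, 0.0184 and 0.0359; rho 0.333, 0.370 and 0.309), became -0.15, 0.027 and -0.15 without those arrays, so those relations rest on them.

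**Figure D4:**
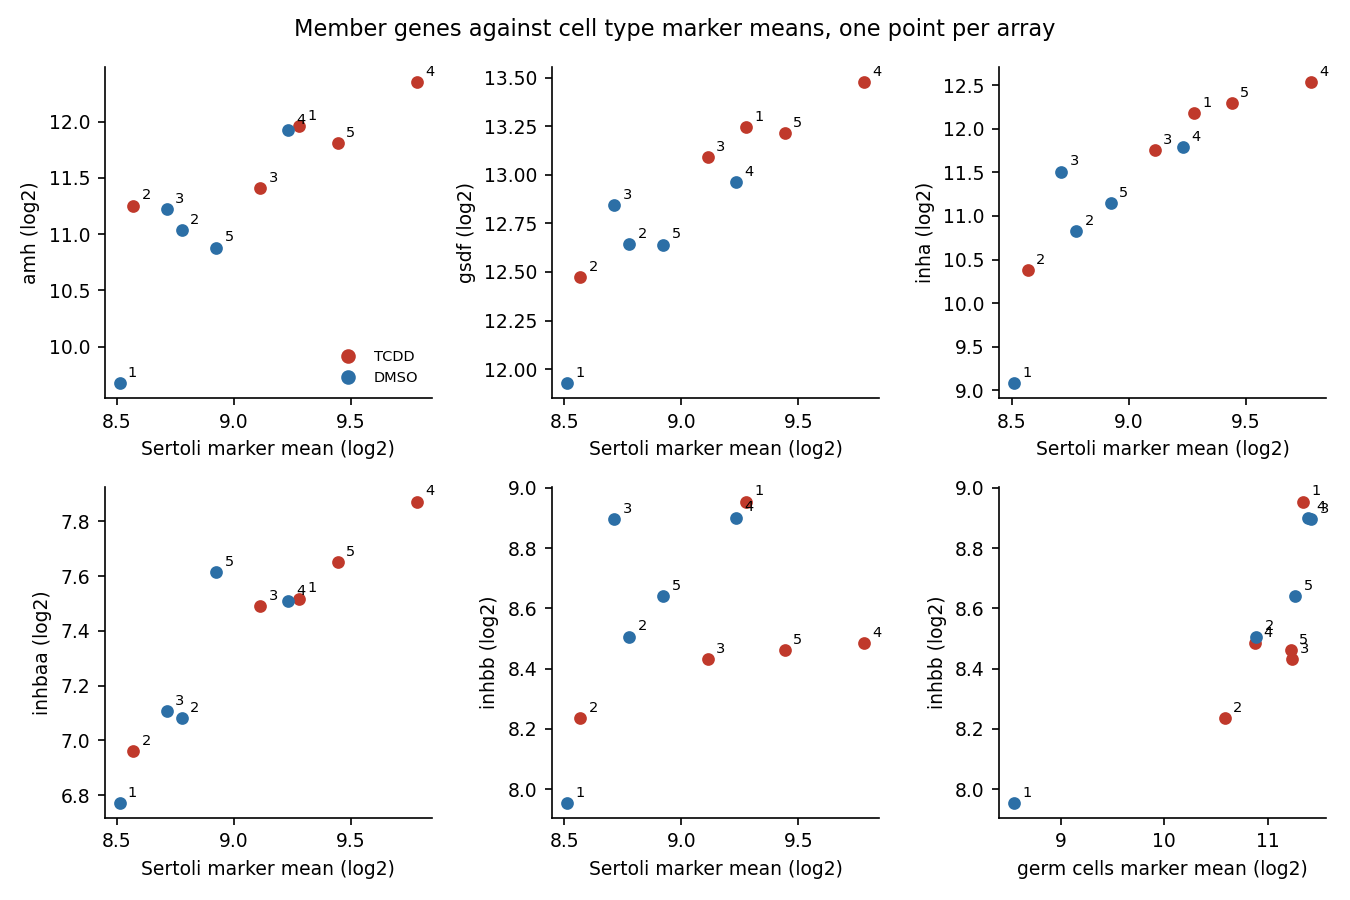
Log2 value of a gene (y axis) against the mean log2 value of the Sertoli or germ cell markers (x axis), with 1 numbered point per array and the group as colour. amh, gsdf, inha and inhbaa climb with the Sertoli mean, from DMSO 1 at the lower left to TCDD 4 at the upper right, and inhbb follows the germ cell mean with r of 0.816.

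Taken relative to the Sertoli marker mean of the same array, the differences of amh and inha were smaller and that of gsdf was close to 0. amh minus the marker mean differed by 0.40 between groups (exact permutation p = 0.175, adjusted over the 6 genes 0.405), and by 0.16 without DMSO 1 (exact permutation adjusted p = 0.730). For inha the value was 0.55 (exact permutation p = 0.270, adjusted 0.405), or 0.18 without DMSO 1. gsdf gave 0.092 (exact permutation p = 0.492, adjusted 0.590), or 0.0034 without DMSO 1 and 0.18 without DMSO 3. inhbaa gave -0.12 (exact permutation p = 0.270, adjusted 0.405), or -0.047 without DMSO 5 and -0.081 without TCDD 4, and bmpr1bb -0.076 (exact permutation p = 0.794, adjusted 0.794), with a range of -0.24 without TCDD 1 to 0.11 without DMSO 3.

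Relative to the Sertoli markers, inhbb had the most negative group difference of the 6 genes. inhbb minus the marker mean was -0.56, -0.27, 0.18, -0.33 and -0.28 in DMSO arrays 1 to 5 and -0.32, -0.33, -0.68, -1.30 and -0.98 in TCDD arrays 1 to 5. All 5 TCDD values lay below the DMSO mean, and TCDD 3, 4 and 5 lay below every DMSO array. The difference was -0.47 (exact two-sided permutation p = 0.0556, adjusted 0.333), and it ranged from -0.65 to -0.29 over 14 alternatives with adjusted p of 0.190 to 0.621. inhbb itself differed by -0.066 and the marker mean by 0.41, so most of the -0.47 was the difference of the markers. It does not show a lower inhbb in TCDD testes.

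In the wider superfamily, 0 of 89 measured genes from 4 lists (ligands, receptors, antagonists, Smads with BMP targets) passed limma's adjusted threshold. At an unadjusted p under 0.05 there was 1, against 2.48% of all genes. Over the 89 genes 55 (61.8%) lay above 0 with a median of 0.03, against 54.6% and 0.02 for all genes.

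Other ligand genes showed no common direction, with 17 of 32 above 0 and a median of 0.0077. Those with the smallest p were gdf3 at 0.26 (95% CI -0.19 to 0.70), gdf5 at -0.15 (95% CI -0.44 to 0.15) and bmp16 at 0.49 with an interval that includes 0. Each moved with single arrays, gdf3 to 0.12 without DMSO 1, gdf5 to -0.081 without TCDD 5 and -0.23 without TCDD 3, and bmp16 to 0.17 without TCDD 4 and 0.81 without TCDD 1. With the covariates gdf3 differed by 0.53 (95% CI 0.11 to 0.95, limma adjusted p = 0.375). gdf5 then differed by -0.053 and bmp16 by 0.092, both with intervals that include 0. bmp16, a fish ligand of the BMP class, ranged from 7.45 in TCDD 1 to 9.99 in TCDD 4 within the TCDD group alone.

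Among receptor genes 10 of 18 lay above 0, with a median of 0.03. bmpr2a, a type II BMP receptor gene, read 8.07, 8.67, 9.25, 9.21 and 9.04 in DMSO arrays 1 to 5 and 9.39, 8.72, 9.07, 9.43 and 9.27 in TCDD arrays 1 to 5. Apart from DMSO 1 and DMSO 2 the groups lay together, and the difference was 0.33 (95% CI -0.19 to 0.85), or 0.13 without DMSO 1. With the covariates the bmpr2a difference was 0.61 (95% CI 0.21 to 1.01, limma adjusted p = 0.375). bmpr2b differed by 0.16 (95% CI -0.12 to 0.44), or by 0.082 without TCDD 4, and tgfbr2b by 0.12 (95% CI -0.11 to 0.36). With the covariates bmpr2b differed by 0.16 and tgfbr2b by 0.19, both with intervals that include 0.

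Extracellular antagonists lay above 0 in 12 of 19, with a median of 0.05. fstb, a follistatin gene whose product binds activin, read 6.88, 7.71, 8.52, 9.48 and 8.78 in DMSO arrays 1 to 5 and 9.32, 8.22, 8.67, 9.83 and 8.95 in TCDD arrays 1 to 5. Its pattern over arrays had DMSO 1 lowest and TCDD 4 highest, as amh had. It differed by 0.73 (95% CI -0.29 to 1.75), or by 0.38 without DMSO 1 and 1.03 without DMSO 4 (95% CI 0.080 to 1.98, limma adjusted p = 1.00). With the covariates the fstb difference was 1.33 (95% CI 0.49 to 2.18, limma adjusted p = 0.375). twsg1a, which modulates BMP binding, differed by 0.19 (95% CI -0.30 to 0.67), or by 0.078 without TCDD 1, 0.10 without DMSO 1 and 0.32 without TCDD 2, and the BMP antagonist gene grem2a by -0.24 (95% CI -0.89 to 0.41). The highest grem2a value, 8.06, was in DMSO 1, and without that array the sign turned, with a difference of 0.036 (95% CI -0.38 to 0.45). With the covariates the grem2a difference was -0.62 (95% CI -1.07 to -0.17, limma adjusted p = 0.375). For twsg1a the difference with the covariates was 0.54 (95% CI 0.073 to 1.01, limma adjusted p = 0.377).

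Smads and BMP target genes lay above 0 in 16 of 20, with a median of 0.10. id3, a direct target of BMP signalling that encodes an inhibitor of helix-loop-helix factors, was the 1 gene of the 89 with an unadjusted p under 0.05. It read 8.57, 7.97, 7.85, 8.08 and 8.23 in DMSO arrays 1 to 5 and 8.63, 8.36, 8.26, 8.68 and 8.68 in TCDD arrays 1 to 5. All TCDD arrays exceeded DMSO 2 to 5, and DMSO 1 lay within the TCDD range. The difference was 0.38 (95% CI 0.036 to 0.73, limma adjusted p = 1.00), and it was 0.49 without DMSO 1 (95% CI 0.19 to 0.79, limma adjusted p = 0.716). The interval included 0 in 6 of 10 such repeats, those without TCDD 1, 4 or 5 and those without DMSO 2, 3 or 4, where the difference was 0.31 to 0.37. With the covariates it was 0.25, and after quantile normalization it was 0.35 (95% CI -0.016 to 0.72). Another BMP target, id2a, differed by 0.30 (95% CI -0.065 to 0.67), or by 0.45 without DMSO 1 (95% CI 0.21 to 0.70, limma adjusted p = 0.716), and the Smad corepressor gene skilb by -0.19 (95% CI -0.42 to 0.039). After quantile normalization and, separately, without TCDD 1, the 1 gene of the 89 at that unadjusted level was skilb and not id3.

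**Figure D5:**
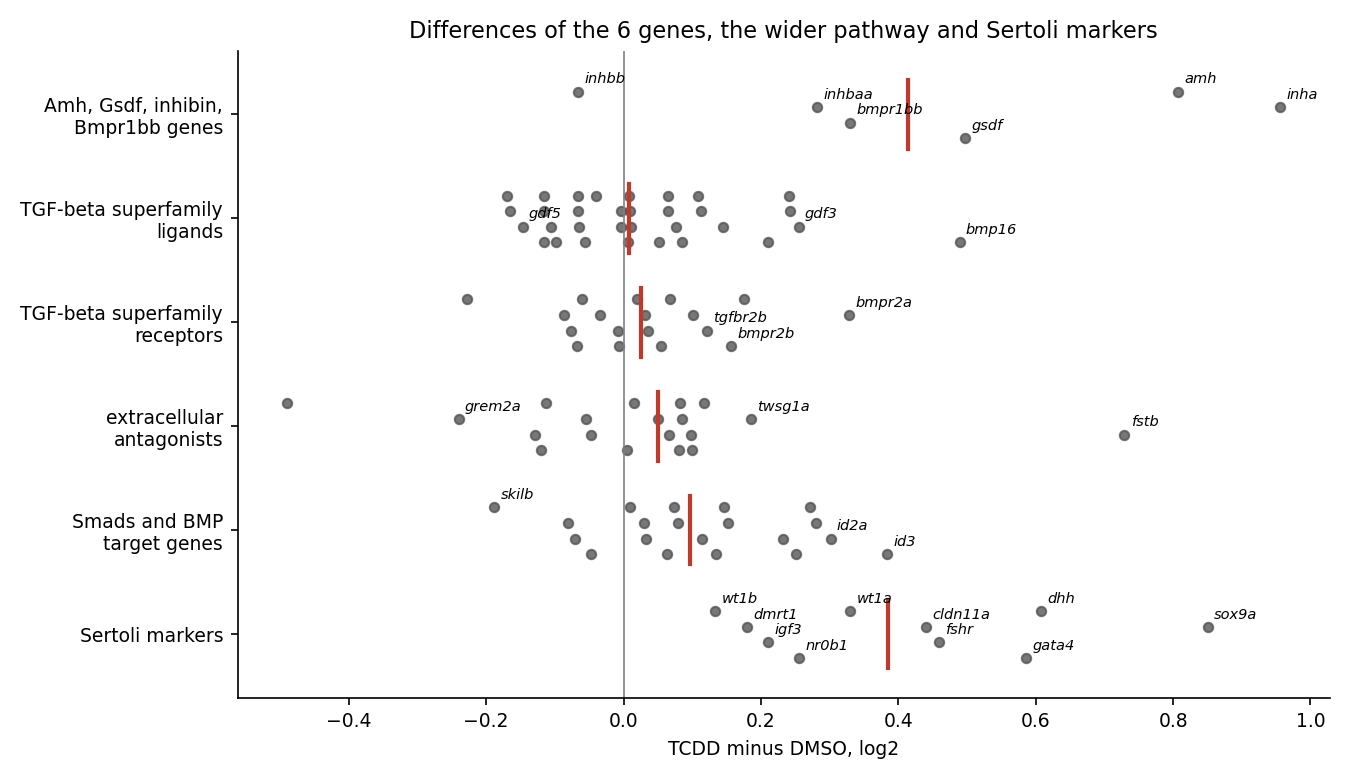
Difference between TCDD and DMSO (x axis, log2) of the 6 genes, of 89 other genes of the superfamily by role, and of the 10 Sertoli markers, with 1 point per gene and a vertical bar at the median of each row. The medians are 0.41 for the 6 genes, 0.0077, 0.03, 0.05 and 0.10 for the 4 pathway lists, and 0.39 for the Sertoli markers.

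Genes whose values followed each member most closely over the 10 arrays were taken, as a description, from 8914 genes at or above the median level whose names are not clone names. For amh these were atxn2l (Pearson's r of 0.952, and 0.877 without DMSO 1), gsdf, fyna, the progesterone receptor gene pgr (0.932, and 0.818 without DMSO 1) and tpcn1. For gsdf they were inha, nme2a (0.977), nckap5l, mfge8b and vat1 (0.953), with 0.971 for nme2a and 0.947 for vat1 without DMSO 1. For inha they were mfge8b (0.985), gsdf, the amino acid transporter subunit gene slc3a2b (0.979), tpcn1 (0.979, and 0.982 without DMSO 1) and the receptor gene bmpr2a (0.968). inhbaa was closest to phpt1 (0.945), the laminin chain gene lamb1a (0.942), hpn, ca8 and the integrin gene itgb8. inhbb was closest to ncoa5 (0.989), INPP5A (0.977), the glycolytic enzyme gene tpi1a (0.968), ppig and dlgap4a. bmpr1bb was closest to gnpat (0.958), gpsm2l, wipi2, the GMP synthase gene gmps (0.948) and zmym4.2. The lists of amh, gsdf and inha share genes, and those of inhbaa, inhbb and bmpr1bb share none with them.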

How the data were processed

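Testis RNA of 5 TCDD and 5 DMSO samples was labelled with biotin and hybridised to 1 array each, as the labels' protocols state. The authors deposited 1 column of log2 expression values per array. Their scale was read from the range of 1.25 to 14.6, since no source used here gives the log base, background correction or normalization. Of 75212 probes, 20806 had 1 gene symbol in the platform annotation, 855 several (these named no gene) and 53551 were unnamed here.

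For each of 19260 genes the probe with the highest mean was fitted with limma 3.58.1 in R 4.3.3 on group, with Benjamini-Hochberg adjustment over all genes at 0.05. Differences are TCDD minus DMSO. The median standard error was 0.18, and the number of arrays limits the precision. Single per-array quantities were tested with an exact two-sided permutation test, and correlations with 100000 permutations of the arrays, both groups pooled. The model and the permutation test were tested on simulated data.

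The members, marker lists, pathway lists and alternatives were chosen with earlier results of these data known. Named genes are the 6 members, the 3 genes of smallest p per pathway list and the 5 genes of highest correlation with each member. No pairing entered the model. Alternatives were the replicate block, a variance trend, array weights, other scalings, a filter on dim genes, other probe rules, covariates and leaving out arrays. Sequences and coordinates were not used here.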

Additional observations from a re-analysis of the deposited data

Results flagged for a closer look

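In TCDD 2 inha minus the Sertoli marker mean was 1.81, while the other TCDD arrays lay between 2.65 and 2.90, so that this array stood apart from its group by Dixon's test. In DMSO arrays the range was 0.57 to 2.79. TCDD 2 had an intestine and pancreas marker mean of 10.9, whose part in this value was not tested. Dixon's test was applied to 28 groups of 5 values, and chance alone marks about 1 in 20.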

How the results depend on the processing

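Of 323 values recomputed under the alternatives, 293 kept their direction and their side of the threshold or, for counts, stayed within 1.5 times. Part of this agreement was fixed in advance. The replicate block, the variance trend and the filter on dim genes leave each member's difference unchanged. The block also could not pass the threshold for the subunit ratios and the values relative to Sertoli markers. No member passed the adjusted threshold under any alternative. The cause of the changes was not tested. inhbb turned to 0.0031, 0.013 and 0.014 without TCDD 2, DMSO 3 or DMSO 4 and to 0.23 with covariates. When single arrays were left out it ranged from -0.22 to 0.014, amh from 0.49 to 1.05, gsdf from 0.33 to 0.65, inha from 0.51 to 1.32, inhbaa from 0.17 to 0.42 and bmpr1bb from 0.16 to 0.49. Relative to Sertoli markers, bmpr1bb turned to 0.0096, 0.029 and 0.11 without TCDD 3, TCDD 5 or DMSO 3 (range -0.24 to 0.11) and to 0.064 without both TCDD 3 and TCDD 4, and gsdf to -0.0067 without both DMSO 1 and TCDD 2. The subunit ratios passed without TCDD 2, within ranges over left-out arrays of 0.34 to 0.90 for inha minus inhbaa and 0.73 to 1.32 for inha minus inhbb.

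Of all genes 0 were called by limma, and 1, kcnh1a, without TCDD 2 and without both DMSO 1 and TCDD 2 (range over left-out arrays 0 to 1). The 478 genes at an unadjusted p under 0.05 became 1400 with array weights, 2436 with covariates, 1190 without both DMSO 1 and TCDD 2, and 289 to 1280 without single arrays, the extremes being DMSO 2 and DMSO 1. The count of 1 pathway gene became 4 with array weights, 7 with covariates, 2 without DMSO 1 and TCDD 2 or without TCDD 3 and TCDD 4, 2 with every probe on its own, 0 with at least a 1.5-fold difference, and 0 to 4 without single arrays. With the replicate number as a block, amh had a 95% CI of 0.032 to 1.58 around 0.81 (limma adjusted p = 1.00), the block changed no call at the adjusted threshold, and 398 genes had an unadjusted p under 0.05. Deviations of same-numbered arrays correlated at -0.58 to 0.29, and the labels name no pairing. These correlations cannot show whether same-numbered arrays were handled together.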
